A study of Homo sapiens with 10 samples.

Results

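The sterol and fatty acid synthesis genes are 40 named genes: 17 enzymes that lead from acetyl-CoA to cholesterol, 6 genes that control or carry sterols, and 17 genes that make, lengthen, desaturate or channel fatty acids. A gene was measured where the array annotation gave a row, or transcript cluster, with that symbol alone, which held for 34 of the 40 among 14232 genes in all. Of the other 6, CYP51A1, HSD17B7, SREBF2 and ELOVL5 were found only in rows shared with other symbols, and FDFT1 and ELOVL7 were in no row used here. The data came from 5 arrays of SH-SY5Y cells treated with paraquat (titled 8, 12, 14, 18 and 20) and 5 arrays of untreated SH-SY5Y cells, the controls (titled 7, 11, 13, 17 and 19). SH-SY5Y is an established human neuroblastoma line with features of sympathetic neurons, and paraquat is a herbicide that cycles between redox states and gives off superoxide. Both groups are the same line. Neither the dose nor the length of exposure is stated in the labels, nor is it said that each array had its own culture. The p-values therefore rest on array-to-array spread alone, and that spread may be technical. Values are log2 expression after RMA, a method that subtracts background, equalises the arrays and summarises the probes of a row.

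Cells build cholesterol from acetyl-CoA through mevalonate, farnesyl diphosphate and squalene, and they build palmitate from the same precursor through malonyl-CoA. Elongases and desaturases then turn palmitate and dietary fatty acids into the longer and unsaturated chains that membranes need. Many genes of both routes are known targets of the SREBP transcription factors, which SCAP escorts out of the endoplasmic reticulum for activation and the INSIG proteins hold back when sterols are plentiful. The brain makes nearly all of its own cholesterol, and its membranes are rich in polyunsaturated chains.

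After paraquat, transcripts of some steps of sterol synthesis and of several elongases and desaturases fell, and 2 genes, FADS3 and ELOVL4, rose. Calls were made at an adjusted p under 0.05 from a limma model of all 22011 rows. Of the 34 measured genes 13 fell (38.2%) and 2 rose (5.88%), beside 14.2% of all genes lower and 9.55% of all genes higher under the same rule. The groups did not overlap for 11 lower and 2 higher members, beside 11.6% and 8.34% of all genes. The median log2 change, paraquat minus control, was -0.26 over the members and 0.00 over all genes. Changes ran from -1.32 in ELOVL6 to 1.58 in FADS3, and 27 of the 34 estimates were below 0. In RNA from whole cultures, fewer cells of a type and less RNA per cell cannot be told apart.

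**Figure D1:**
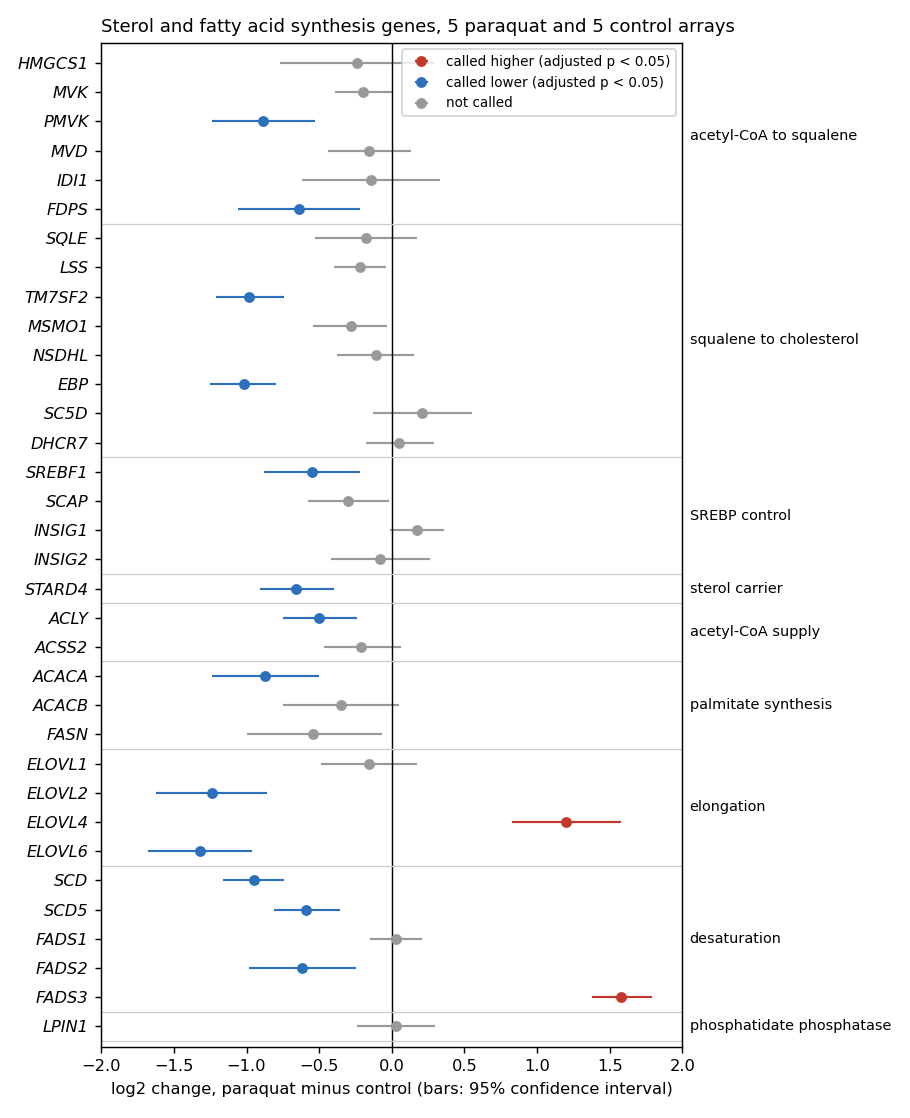
Log2 change (x axis, paraquat minus control, n = 5 arrays each, bars 95% confidence intervals) of the 34 measured genes in pathway order (y axis), with genes called higher in red, called lower in blue and not called in grey. The 2 red points, ELOVL4 and FADS3, lie at 1.2 and 1.58, and the lowest blue points, ELOVL6 and ELOVL2, at -1.32 and -1.24.

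The stretches upstream of 7 genes are shown because these genes carry the ends of the range among the members: the 5 largest falls (ELOVL6, ELOVL2, EBP, TM7SF2 and SCD) and both rises (ELOVL4 and FADS3). Each holds the 250 bases before the annotated start in RefSeq's GRCh38.p14 table, 5′ to 3′ on the gene's strand. Capitals mark matches, on either strand, to CCAAT (bound by NF-Y) or GGGCGG (bound by SP1), and no match to the SREBP motif TCACNCCAC was found in these 7. None of the 3 motifs is contained in another.
ELOVL6, chr4:110198616-110198865, minus strand: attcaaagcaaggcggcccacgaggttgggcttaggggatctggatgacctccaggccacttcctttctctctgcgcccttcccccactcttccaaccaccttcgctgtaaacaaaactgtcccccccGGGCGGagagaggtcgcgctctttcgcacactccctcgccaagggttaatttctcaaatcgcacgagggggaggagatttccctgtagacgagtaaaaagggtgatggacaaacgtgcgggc
ELOVL2, chr6:11044306-11044555, minus strand: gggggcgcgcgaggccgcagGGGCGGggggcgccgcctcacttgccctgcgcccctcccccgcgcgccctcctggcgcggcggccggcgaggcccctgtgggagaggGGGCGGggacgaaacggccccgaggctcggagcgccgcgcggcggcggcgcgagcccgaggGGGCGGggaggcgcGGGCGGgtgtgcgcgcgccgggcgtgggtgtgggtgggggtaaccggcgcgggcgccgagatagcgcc
EBP, chrX:48521558-48521807, plus strand: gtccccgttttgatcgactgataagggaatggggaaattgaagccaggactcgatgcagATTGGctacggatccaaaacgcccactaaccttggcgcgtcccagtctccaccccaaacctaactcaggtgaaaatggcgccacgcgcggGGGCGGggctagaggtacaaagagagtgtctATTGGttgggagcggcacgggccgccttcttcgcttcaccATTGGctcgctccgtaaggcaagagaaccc
TM7SF2, chr11:65111622-65111871, plus strand: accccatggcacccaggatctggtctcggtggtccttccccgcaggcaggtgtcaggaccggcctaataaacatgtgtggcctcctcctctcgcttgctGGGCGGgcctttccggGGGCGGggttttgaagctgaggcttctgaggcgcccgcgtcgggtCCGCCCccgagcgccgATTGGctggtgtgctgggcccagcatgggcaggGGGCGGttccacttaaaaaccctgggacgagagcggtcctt
SCD, chr10:100346983-100347232, plus strand: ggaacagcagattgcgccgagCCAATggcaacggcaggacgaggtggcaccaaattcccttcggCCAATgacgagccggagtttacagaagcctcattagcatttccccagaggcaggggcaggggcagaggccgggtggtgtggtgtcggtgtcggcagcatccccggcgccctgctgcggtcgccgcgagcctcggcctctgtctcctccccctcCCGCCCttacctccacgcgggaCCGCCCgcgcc
ELOVL4, chr6:79947554-79947803, minus strand: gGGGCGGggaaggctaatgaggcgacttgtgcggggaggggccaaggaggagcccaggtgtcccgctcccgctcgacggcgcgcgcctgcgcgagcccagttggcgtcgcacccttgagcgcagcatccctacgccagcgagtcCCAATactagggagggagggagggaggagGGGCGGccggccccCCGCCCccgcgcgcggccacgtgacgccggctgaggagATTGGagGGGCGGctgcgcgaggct
FADS3, chr11:61891546-61891795, minus strand: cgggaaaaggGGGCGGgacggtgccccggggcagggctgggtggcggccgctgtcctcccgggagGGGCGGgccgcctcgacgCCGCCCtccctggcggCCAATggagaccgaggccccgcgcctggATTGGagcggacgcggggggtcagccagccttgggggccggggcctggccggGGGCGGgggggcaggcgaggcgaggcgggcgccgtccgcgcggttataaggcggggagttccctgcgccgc

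Of the 40 genes 37 had an entry in that table, FDFT1, SQLE and FASN being the others. The SREBP motif was found upstream of 1 of the 37, SREBF2, and in 0.883% of all 35116 promoters of the table, which also holds non-coding genes. CCAAT was found in 7 of the 13 members that fell, in both that rose, in 11 of 17 that were not called and in 32% of all promoters. GGGCGG was found in 12 of the 13, in both that rose, in 15 of the 17 and in 42.6% of all. Among the 7 shown, ELOVL6 and ELOVL2 have no CCAAT and the other 5 have both motifs. A match is a description of letters and not a binding site. Nor does the lack of a match show that a site is absent, since other spellings and bases beyond these 250 were not searched.

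In the early part of sterol synthesis, from acetyl-CoA to farnesyl diphosphate, PMVK and FDPS fell and the estimates of the other 4 measured genes were below 0 without passing. PMVK, which adds the second phosphate to mevalonate, had 7.48, 7.92, 7.71, 7.44 and 7.45 in paraquat arrays 8, 12, 14, 18 and 20, against 8.42, 9.06, 8.24, 8.34 and 8.37 in control arrays 7, 11, 13, 17 and 19. Every paraquat array was below every control array, and the gene was 1.85-fold lower (log2 change -0.89 ± 0.16, adjusted p = 0.00265). Log2 changes are given ± SE from the limma fit, with n = 5 arrays a group. FDPS, which makes farnesyl diphosphate for sterols and for protein prenylation, had 7.56, 7.73, 7.27, 7.09 and 7.26 in the paraquat arrays, against 7.96, 8.64, 7.54, 8.03 and 7.94 in the controls. These groups overlapped in the values of paraquat 8 and 12 and control 13, and the log2 change was -0.64 ± 0.19 (adjusted p = 0.0349). The FDPS call ended without paraquat 14, 18 or 20 or without control 7, 17 or 19, where the adjusted p lay between 0.0555 and 0.0840.

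The entry enzyme HMGCS1, which makes HMG-CoA, had 6.97, 7.88, 7.48, 6.84 and 7.33 in the paraquat arrays, against 7.58, 8.30, 7.41, 7.24 and 7.16 in the controls. Its groups overlapped widely (log2 change -0.24 ± 0.24, 95% confidence interval -0.77 to 0.30, adjusted p = 0.581). MVK, the mevalonate kinase, had a log2 change of -0.20 ± 0.09 (adjusted p = 0.154), MVD, the decarboxylase after PMVK, -0.16 ± 0.13 (adjusted p = 0.477), and IDI1, the isomerase that follows, -0.14 ± 0.22 (95% confidence interval -0.62 to 0.33, adjusted p = 0.733). The change of PMVK lies below the lower bound of the interval of each of these 4 genes, though the differences themselves were not tested.

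Between squalene and cholesterol, TM7SF2 and EBP fell to about the same degree, and the other 6 measured enzymes did not pass. TM7SF2, a reductase that acts on the sterol nucleus after lanosterol demethylation, had 7.97, 7.61, 7.53, 7.89 and 7.73 in the paraquat arrays, against 8.62, 8.58, 8.68, 8.86 and 8.86 in the controls. The groups were well apart, with a 1.97-fold lower level (log2 change -0.98 ± 0.11, adjusted p = 9.42e-05). EBP, the sterol isomerase further on, had 7.27, 7.03, 7.19, 7.31 and 7.04 in the paraquat arrays, against 8.07, 8.44, 8.22, 8.24 and 7.99 in the controls. It was 2.03-fold lower (log2 change -1.02 ± 0.10, adjusted p = 5.7e-05), again without overlap. LBR, a lamin-binding protein of the inner nuclear membrane with the same reductase activity as TM7SF2, is not among the 40 genes and was taken from a list of further sterol genes. It averaged 8.81 ± 0.20 in the paraquat arrays and 9.90 ± 0.12 in the controls (SD, n = 5 each; log2 change -1.08, adjusted p = 5.8e-05 in limma). ERG28, a scaffold of sterol enzymes in the same list, fell by 0.70 on the log2 scale. The third measured gene of the 6 in that list was not called, but was called higher without paraquat 12.

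SQLE, which oxidises squalene and is a control point of the route, had 9.13, 9.21, 9.15, 8.54 and 8.77 in the paraquat arrays, against 9.21, 9.51, 9.04, 9.07 and 8.86 in the controls (log2 change -0.18 ± 0.16, 95% confidence interval -0.53 to 0.17, adjusted p = 0.515). LSS, the cyclase that forms lanosterol, had 8.72, 8.64, 8.52, 8.64 and 8.67 in the paraquat arrays, against 8.74, 8.77, 8.98, 8.97 and 8.83 in the controls. Its groups did not overlap, yet the log2 change of -0.22 ± 0.08 did not pass (adjusted p = 0.0860). It passed in a limma fit with array weights, where arrays of wider spread count less (-0.24, adjusted p = 0.0277). MSMO1 and NSDHL, which remove methyl groups from the sterol nucleus, had log2 changes of -0.28 ± 0.12 and -0.11 ± 0.12 (adjusted p = 0.118 and 0.600). In limma MSMO1 passed without paraquat 14 (adjusted p = 0.0498) and with array weights (adjusted p = 0.0271). The last enzymes measured had estimates above 0. SC5D, a sterol desaturase, had a log2 change of 0.21 ± 0.16 (adjusted p = 0.421) that passed without control 11 (0.35, adjusted p = 0.0326). DHCR7, the reductase at the end of the route, had 0.05 ± 0.11 (95% confidence interval -0.18 to 0.29, adjusted p = 0.811). Of the rows shared with other symbols, that of CYP51A1 and LRRD1 changed by 0.10 and neither it nor the next passed. The row of HSD17B7 with 4 further symbols, HSD17B7P2 among them, changed by -0.04. Which of the sharing genes each of these rows measured was not tested, so they are no sure reading of CYP51A1 or HSD17B7.

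**Figure D2:**
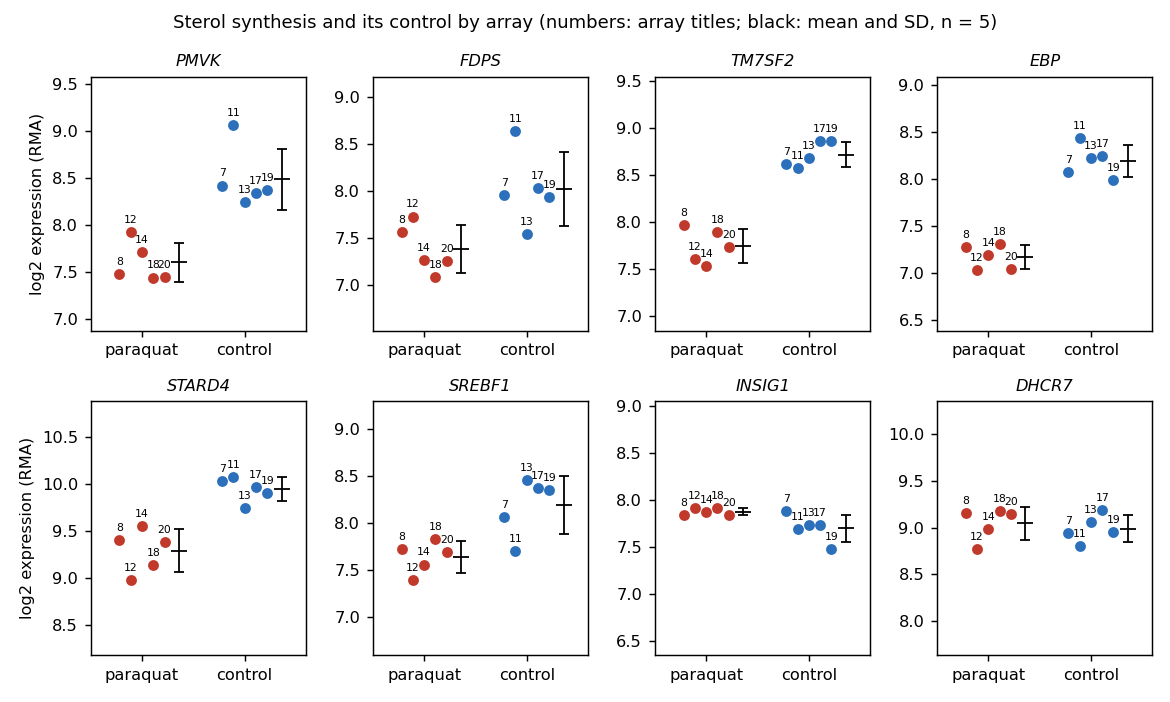
Log2 expression (y axis) of 8 sterol synthesis and control genes in each paraquat (red, left) and control (blue, right) array, numbered by title, with the mean and SD of 5 arrays in black. PMVK, TM7SF2, EBP and STARD4 do not overlap between groups, whereas control 11 reaches 7.70 in SREBF1, below the 7.83 of paraquat 18.

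Among the controllers, SREBF1 fell, with overlap between groups, and SCAP, INSIG1 and INSIG2 did not pass. SREBF1, which encodes the SREBP form linked mainly to fatty acid synthesis, had 7.72, 7.39, 7.56, 7.83 and 7.69 in the paraquat arrays, against 8.07, 7.70, 8.46, 8.38 and 8.35 in the controls. Control 11 lay below paraquat 8 and 18, and the log2 change was -0.55 ± 0.15 (adjusted p = 0.0229). That call ended without paraquat 12 or without control 13, 17 or 19 (adjusted p between 0.0528 and 0.0605). SREBF2, the form linked mainly to cholesterol synthesis, shared its only row with MIR33A, a microRNA gene within it, and that row changed by -0.38 (adjusted p = 0.170).

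SCAP, the escort of both SREBP forms, had 8.75, 8.41, 8.84, 8.73 and 8.65 in the paraquat arrays, against 8.93, 8.59, 9.22, 9.11 and 9.04 in the controls. Its log2 change of -0.30 ± 0.13 did not pass (adjusted p = 0.129), and without control 11 it was -0.40 and passed (adjusted p = 0.0218). INSIG1 had 7.84, 7.92, 7.87, 7.91 and 7.84 in the paraquat arrays, against 7.88, 7.69, 7.73, 7.73 and 7.48 in the controls. INSIG1 is itself a known SREBP target, and its log2 change was 0.17 ± 0.09 (95% confidence interval -0.01 to 0.36, adjusted p = 0.198). INSIG2 had 8.19, 8.26, 8.32, 7.87 and 7.96 in the paraquat arrays, against 8.33, 8.66, 7.98, 8.13 and 7.86 in the controls (log2 change -0.08 ± 0.15, adjusted p = 0.803). STARD4, a soluble protein that carries sterols between membranes, had 9.40, 8.98, 9.55, 9.14 and 9.38 in the paraquat arrays, against 10.03, 10.08, 9.75, 9.97 and 9.90 in the controls. It fell without overlap (log2 change -0.66 ± 0.12, 1.58-fold lower, adjusted p = 0.00243).

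At the head of the fatty acid branch ACLY and ACACA fell, and the estimate for FASN was also below 0 but did not pass. ACLY, which cleaves citrate to cytosolic acetyl-CoA and so feeds both routes, had 11.17, 10.71, 11.16, 11.12 and 11.04 in the paraquat arrays, against 11.49, 11.28, 11.67, 11.68 and 11.58 in the controls. The groups did not overlap, at a log2 change of -0.50 ± 0.12 (adjusted p = 0.0105), and the call ended after quantile normalization (-0.42, adjusted p = 0.0503). SLC25A1, the mitochondrial citrate carrier that supplies ACLY, is not among the 40 genes and fell by 0.92 on the log2 scale (8.82 ± 0.15 in the paraquat arrays and 9.74 ± 0.11 in the controls, SD, n = 5 each). ACSS2, which makes acetyl-CoA from acetate, had a log2 change of -0.21 ± 0.12 (adjusted p = 0.286).

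ACACA, the cytosolic acetyl-CoA carboxylase that makes malonyl-CoA for synthesis, had 7.20, 7.02, 7.63, 7.36 and 7.33 in the paraquat arrays, against 8.06, 7.63, 8.31, 8.37 and 8.48 in the controls. The groups met at 7.63 (paraquat 14 and control 11), and the level was 1.82-fold lower (log2 change -0.87 ± 0.17, adjusted p = 0.00386). ACACB, the mitochondrial form whose malonyl-CoA restrains fatty acid oxidation, had a log2 change of -0.35 ± 0.18 (95% confidence interval -0.75 to 0.05, adjusted p = 0.231). FASN, the fatty acid synthase, had 9.03, 8.78, 9.32, 9.33 and 9.24 in the paraquat arrays, against 9.38, 9.0, 10.14, 9.81 and 10.05 in the controls. Control 11 was the lowest control for FASN and lay below 4 of the 5 paraquat arrays. The log2 change was -0.54 ± 0.21 (adjusted p = 0.109), and without control 11 it was -0.70 and passed (adjusted p = 0.0147).

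The elongases moved in both directions. ELOVL6, which takes palmitate to stearate, had 7.68, 7.33, 7.92, 7.18 and 7.34 in the paraquat arrays, against 8.87, 9.21, 8.56, 8.78 and 8.62 in the controls. This was the largest fall of any member (2.49-fold lower, log2 change -1.32 ± 0.16, adjusted p = 0.000230). ELOVL2, which lengthens long polyunsaturated chains on the way to docosahexaenoic acid, had 7.14, 6.46, 7.03, 6.36 and 6.50 in the paraquat arrays, against 8.16, 7.59, 8.00, 8.06 and 7.88 in the controls. It too fell without overlap (2.36-fold lower, log2 change -1.24 ± 0.17, adjusted p = 0.000482). ELOVL4, which makes the longest chains and is known for its role in retina and brain, had 6.65, 7.26, 7.5, 6.86 and 7.18 in the paraquat arrays, against 5.75, 6.24, 5.78, 5.63 and 6.04 in the controls. All its paraquat arrays were above all its controls (2.30-fold higher, log2 change 1.2 ± 0.17, adjusted p = 0.000553). ELOVL1, an elongase of saturated very long chains, had a log2 change of -0.16 ± 0.15 (95% confidence interval -0.49 to 0.17, adjusted p = 0.552), and the row of ELOVL5 and the pseudogene RPS16P5 changed by -0.14 (adjusted p = 0.436).

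The desaturases also split. SCD, which puts the double bond into oleate and palmitoleate, had 8.97, 8.58, 8.92, 8.66 and 8.79 in the paraquat arrays, against 9.73, 9.70, 9.69, 9.90 and 9.66 in the controls. The groups were far apart (1.93-fold lower, log2 change -0.95 ± 0.10, adjusted p = 5.7e-05). SCD5, a second enzyme of that kind that rodents lack, had 7.31, 7.33, 7.46, 6.97 and 7.20 in the paraquat arrays, against 7.86, 7.68, 7.86, 7.91 and 7.88 in the controls. It fell by less (log2 change -0.59 ± 0.10, adjusted p = 0.00187), also without overlap.

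FADS1, FADS2 and FADS3 lie beside one another on chromosome 11, and the first 2 act in turn on polyunsaturated chains. FADS1 ranged from 9.90 to 10.10 in the paraquat arrays, against 9.82 to 10.14 in the controls, and did not pass (log2 change 0.03 ± 0.08, 95% confidence interval -0.15 to 0.21, adjusted p = 0.871). FADS2, which takes the first desaturation step, had 9.44, 9.28, 9.84, 9.92 and 9.78 in the paraquat arrays, against 9.96, 9.98, 10.56, 10.30 and 10.54 in the controls. The highest paraquat array lay just under the lowest control (log2 change -0.62 ± 0.17, adjusted p = 0.0222), and the call ended without paraquat 8 or without control 13, 17 or 19 (adjusted p between 0.0508 and 0.0564). FADS3, which is known to desaturate sphingoid bases of ceramides, had 9.44, 9.35, 9.31, 9.69 and 9.50 in the paraquat arrays, against 7.71, 7.99, 7.92, 7.90 and 7.86 in the controls. It rose 2.99-fold (log2 change 1.58 ± 0.09, adjusted p = 1.3e-06); the groups were farther apart than in any other member. LPIN1, a phosphatidate phosphatase that turns fatty acids towards triglyceride, had a log2 change of 0.03 ± 0.12 (95% confidence interval -0.24 to 0.30, adjusted p = 0.911). Rows that several symbols share did not always follow the row of the single symbol. A row of FADS1 with NCAPD2 and SCARNA10 changed by -0.93 and a row of FADS2 with FEN1 by -0.95 (adjusted p = 7.81e-05 and 0.00400), a row of IDI1 with IDI2-AS1 by 1.34 (adjusted p = 9e-05), a row of FDPS with RUSC1-AS1 by -0.34 (adjusted p = 0.109) and a row of SCAP with PTPN23 by 0.15 (adjusted p = 0.547). Which of the sharing genes these rows measured was not tested.

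**Figure D3:**
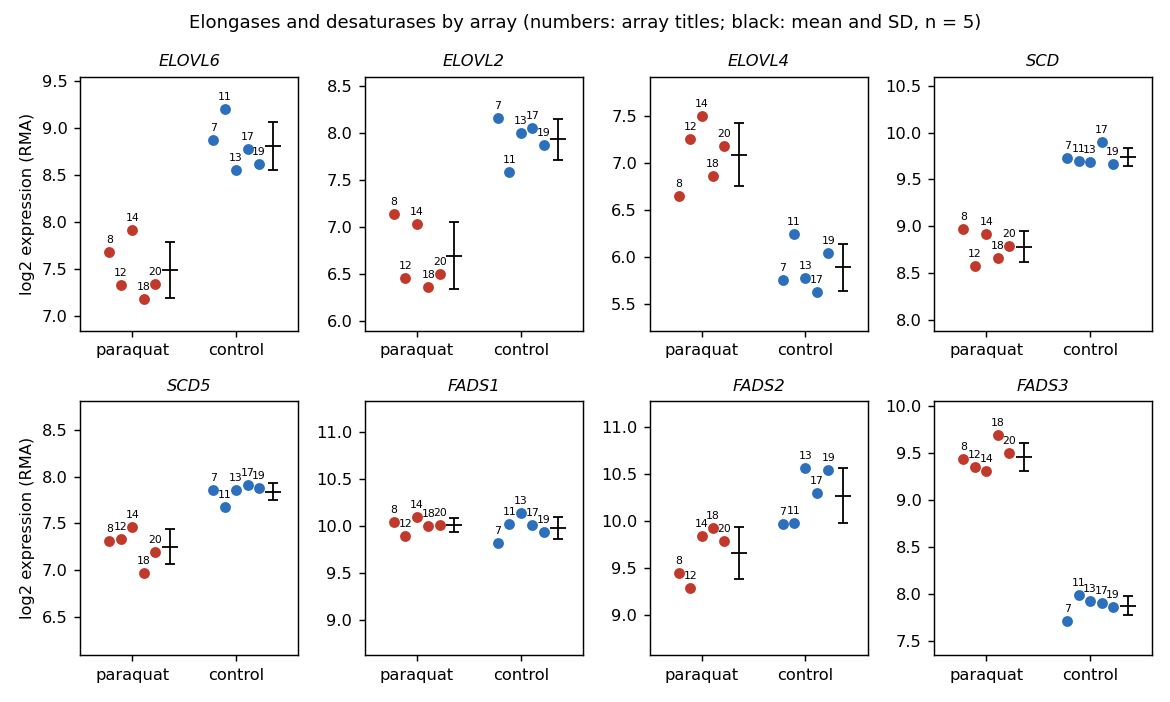
Log2 expression (y axis) of 3 elongases and 5 desaturases in each paraquat (red, left) and control (blue, right) array, numbered by title, with the mean and SD of 5 arrays in black. ELOVL6, ELOVL2, SCD, SCD5 and FADS2 are lower and ELOVL4 and FADS3 higher in every paraquat array, and FADS1 overlaps between groups.

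Related genes changed by unequal amounts in 4 of 5 pairs compared. For each pair the log2 difference was taken within every array and compared between groups by an exact two-sided permutation test, whose smallest p for 5 against 5 arrays is 0.00794, with adjustment over the 5 pairs. ELOVL4 and ELOVL2 diverged most, by 2.44 ± 0.31 (difference of log2 changes ± SE, adjusted p = 0.0132). Since ELOVL4 was higher and ELOVL2 lower in every paraquat array, this pair could only give the smallest p. That p therefore adds nothing to the calls of the 2 genes. FADS1 minus FADS2 changed by 0.65 ± 0.16 (adjusted p = 0.0132). SCD fell by more than SCD5, with a difference of -0.37 ± 0.09 (adjusted p = 0.0132), and ACACA by more than the estimate for ACACB, with -0.52 ± 0.16 (adjusted p = 0.0198). INSIG1 minus INSIG2 had a difference of 0.25 ± 0.15 that did not pass (adjusted p = 0.143). The pairs of SREBF1 with SREBF2 and of ELOVL6 with ELOVL5 were not tested, since each has 1 gene without a row of its own.

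**Figure D4:**
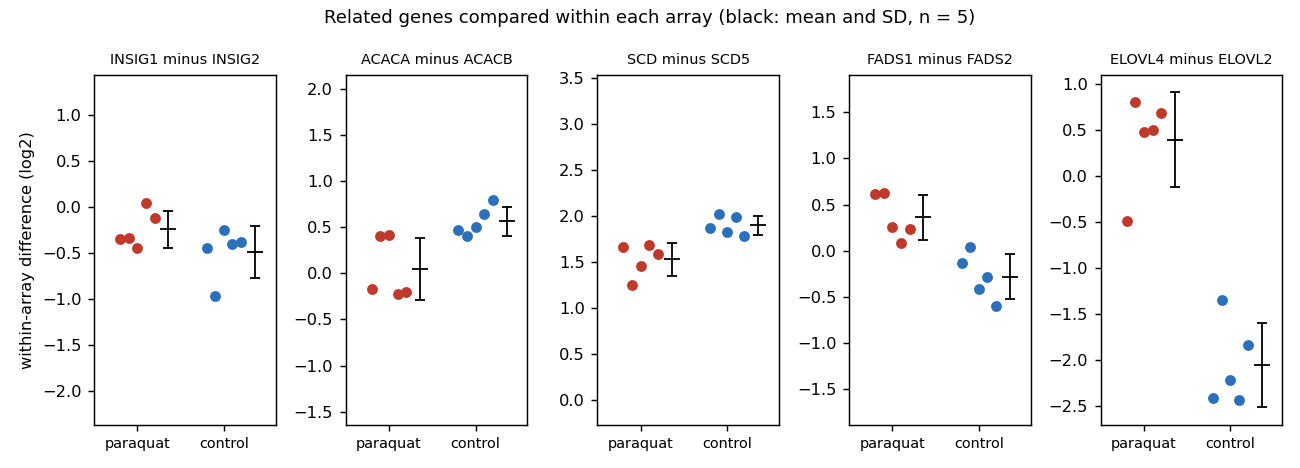
Within-array log2 difference (y axis) of 5 pairs of related genes in paraquat (red, left) and control (blue, right) arrays, with the mean and SD of 5 arrays in black. ELOVL4 minus ELOVL2 lies between -0.49 and 0.80 in paraquat arrays and between -2.43 and -1.35 in controls, and INSIG1 minus INSIG2 overlaps.

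Counted by branch, 4 of 14 sterol enzymes fell (28.6%) and 0 rose, with a median log2 change of -0.21. Of 15 genes of the fatty acid branch 7 fell (46.7%) and 2 rose (13.3%), with a median of -0.50. Of all genes 14.2% were lower and 9.55% higher. The difference between the branches was not tested. At an unadjusted p under 0.05 in the limma fit, 7 of the 14 sterol enzymes were lower and 0 higher. Array medians over all rows ran from 6.78 to 6.93, and control 11 had the widest residual spread (SD 0.358, against 0.206 to 0.291 in the other arrays). Control 11 also stood apart from the other controls in the lipid genes. Its deviations from the group means had an SD of 0.389, against 0.119 to 0.191 in the other controls. Paraquat 12 was less apart, at 0.254 against 0.220 in paraquat 18. Control 11 was the highest control for 16 of the 34 members and the lowest for 11, and paraquat 12 was the lowest paraquat array for 15. In FASN, ACACA, ACACB, ACLY, ACSS2, DHCR7, SREBF1 and SCAP both arrays were the lowest of their group, and in HMGCS1, IDI1, FDPS, PMVK and SQLE both were the highest. They went opposite ways in EBP, STARD4 and SC5D, where paraquat 12 was the lowest of its group and control 11 the highest. Without these 2 arrays all 15 calls held and SC5D, SCAP and FASN were added, which made 18.

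**Figure D5:**
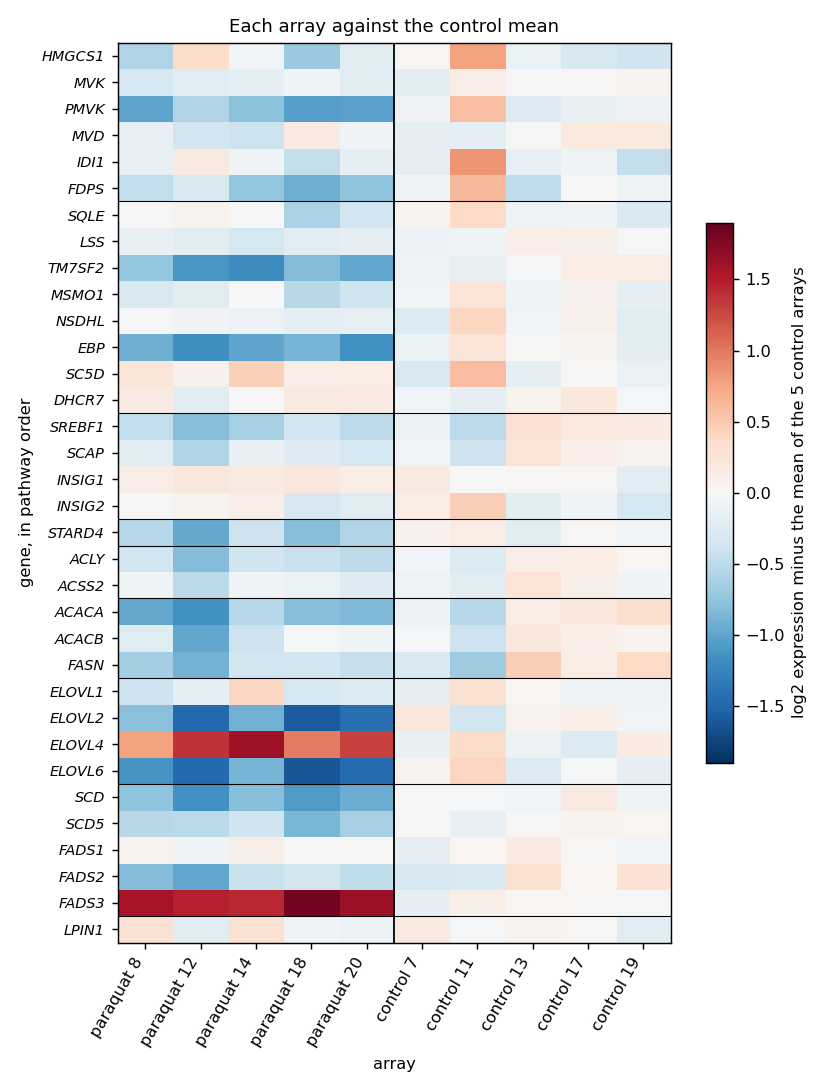
Log2 expression minus the control mean (colour) of the 34 measured genes (y axis, pathway order) in the 5 paraquat arrays (left) and the 5 control arrays (right). FADS3 and ELOVL4 are red and ELOVL6, ELOVL2, SCD, EBP and TM7SF2 blue in all paraquat arrays, and the column of control 11 ranges from 0.85 in IDI1 to -0.68 in FASN.

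Neighbouring pathways were counted from lists of further genes, beside the 14.2% lower and 9.55% higher among all genes. In sterol uptake, efflux and storage 3 of 12 measured genes rose and 1 fell (median log2 change 0.12), with MYLIP, the ubiquitin ligase that degrades lipoprotein receptors, 1.09 higher, NPC1, which exports cholesterol from lysosomes, 0.68 higher, and the lysosomal lipase LIPA at -0.88. Without control 11, 3 genes of this list fell. Of 11 measured genes of glycerolipid synthesis 2 fell and 1 rose: LPCAT3, which puts polyunsaturated chains into phospholipids (-1.0), GPAM, which starts glycerolipid synthesis (-0.81), and the lipid droplet coat PLIN2 (0.78). Fatty acid oxidation, which breaks fatty acids down, had 8 of 17 genes lower and 0 higher in limma (0 also at an unadjusted p under 0.05), with a median of -0.37. ACADSB (-0.77), CPT2 (-0.71) and HADH (-0.70) of that list fell most, and 5 fell without paraquat 18 or 20 or without control 13 or 19. Of these 17 genes 4 were lower at an adjusted p under 0.01 and 1 against a minimum fold of 1.2, where ACADSB was called and CPT2 and HADH were not.

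As to identity, markers of cell types were counted beside the 14.2% lower and 9.55% higher among all genes. Of 12 markers of sympathetic neuroblasts 9 were measured and 7 fell, among them CHGA (-1.66), ISL1 (-1.21) and PHOX2A (-1.08). The other 2 did not pass: GAP43 had an estimate above 0 (0.62, adjusted p = 0.0532 in limma) and TH changed by -0.06. The mean level of the 9 per array was 8.95 to 9.08 in the paraquat arrays and 9.58 to 9.70 in the controls. Without control 11 and paraquat 12, 4 fell and 1 rose, and 1 rose also without paraquat 18 or 20 or control 11. With all 10 arrays kept, 1 rose with arrays centred on their medians (6 fell) and after quantile normalization (5 fell). The same held with array weights (7 fell) and with neighbouring titles as a block (6 fell). Of 10 mesenchymal markers 2 rose (SNAI2, 1.97, and CD44, 1.67) and 2 fell (THY1, -1.16, among them), with mean levels of 8.12 to 8.46 in the paraquat arrays and 7.99 to 8.21 in the controls, and 4 fell and 3 rose without control 11. Of 4 measured leukocyte markers CD68 (1.33) and CD14 (0.64) rose, with mean levels of 5.02 to 5.21 in the paraquat arrays and 4.48 to 4.74 in the controls, and the defining PTPRC was dim in both groups (2.72 and 2.67). Of 6 hepatocyte and adipocyte markers 0 were called, and ALB stood at 2.68 and 2.67 and FABP4 at 2.56 and 2.64 in the paraquat and control arrays. At an unadjusted p under 0.05 in limma 0 of these 6 passed, and 1 was called without paraquat 14. The part of these markers in the changes of the lipid genes was not tested.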

How the data were processed

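RNA of 5 paraquat-treated and 5 untreated SH-SY5Y samples was measured on Affymetrix Exon 1.0 ST arrays. The deposited log2 values were made with RMA, per the submitters' processing notes; that they are log2 was read from their range, and the software version, filter and genome build are not stated in the labels. Rows were named through GEO's platform annotation, in which 14432 of 22011 rows had 1 symbol, 2408 several and 5171 none. A gene with several rows was read from the row with the highest mean. The number of arrays limits the precision, and the median SE of a log2 change was 0.13.

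Groups were compared with limma 3.58.1 in R 4.3.3 (lmFit and eBayes, the group as only term, Benjamini-Hochberg adjustment over all rows), after a test on simulated data. Pairs of related genes were compared by exact permutation over the 10 arrays. Alternatives were another scaling, filter, weighting, variance prior, call rule, choice of row, left-out arrays and, added after seeing the data, a block of neighbouring titles. The lipid genes and all lists were chosen with earlier results of these data known. All 40 genes are accounted for, and up to 3 called genes of largest change are named per list; per-array values are given for members with non-overlapping groups and a log2 change of at least 0.5, for the controllers, and for others chosen after their values were seen.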

Additional observations from a re-analysis of the deposited data

Results flagged for a closer look

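In 5 of the 68 groups of 5 arrays tested (34 genes in 2 groups), 1 array lay farther from the others than Dixon's 95% critical value allows, and chance gives about 1 in 20 such groups. PMVK was 9.06 in control 11, with the other controls between 8.24 and 8.42. IDI1 was 9.34 in control 11, with the other controls between 8.05 and 8.42. SCD5 was 7.68 in control 11, below the 7.86 to 7.91 of the other controls. ACLY was 10.71 in paraquat 12, below the 11.04 to 11.17 of the other paraquat arrays. ELOVL1 was 9.22 in paraquat 14, above the 8.44 to 8.64 of the other paraquat arrays. PMVK, SCD5 and ACLY were called lower also without control 11 and paraquat 12.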

How the results depend on the processing

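Over 680 values of single genes under alternatives, 642 kept their side of the threshold, 24 lost a call, 14 gained one and 0 changed sign after a call. Genes not called could change sign, such as IDI1, at -0.14 as reported and 0.07 without control 11. Of the 15 called genes 10 were called under every alternative run. The count of sterol enzymes higher was 0 as reported and 1 without control 11, alone or with paraquat 12 (leaving out 1 array at a time, 0 to 1). That of sterol enzymes lower was 4 as reported, 3 to 4 on leaving out 1 array and 6 with array weights, where LSS and MSMO1 were added. With array weights the control and carrier genes lower were 3 and the fatty acid genes lower 8. All genes were then 2813 lower and 1821 higher. The controllers lower were 2 as reported, 1 at a minimum fold of 1.2, 1 at an adjusted p under 0.01, and 1 to 3 on leaving out 1 array. The fatty acid genes lower were 7 as reported, 4 at the minimum fold of 1.2, where SCD5 was among those lost, and 6 to 8 on leaving out 1 array. Among all genes 2025 were lower as reported, 772 at the minimum fold of 1.2, 1191 at an adjusted p under 0.01 and 1565 to 2130 on leaving out 1 array, and 1359 were higher as reported, 545, 818 and 1095 to 1492 under those settings. Both call rules are stricter by construction. The share of calls that were lower was 59.8% as deposited, 52.8% with arrays centred on their medians and 55.4% after quantile normalization. On leaving out 1 array the differences within pairs ran from 2.34 to 2.66 for ELOVL4 minus ELOVL2, 0.57 to 0.73 for FADS1 minus FADS2, -0.61 to -0.45 for ACACA minus ACACB, -0.40 to -0.30 for SCD minus SCD5 and 0.13 to 0.31 for INSIG1 minus INSIG2. The groups share no array number, and no label ties a control to a paraquat array. After seeing the data, a fit with neighbouring titles (8 with 7, 12 with 11, 14 with 13, 18 with 17, 20 with 19) as a replicate block was added. Deviations from the group means over all rows correlated at 0.23, 0.46, 0.09, 0.17 and 0.12 in these pairs, and paraquat 14 and 18 correlated better with another control, so the pairing is a hint from the data and not the design. With the block the sterol enzymes lower were 4, the control and carrier genes lower 3, the fatty acid genes lower 9 and higher 2, and all genes 2458 lower and 1560 higher. All 15 calls of the lipid genes held, and SCAP (-0.30, adjusted p = 0.0281), ACACB (-0.35, adjusted p = 0.0493), FASN (-0.54, adjusted p = 0.0143) the row of SREBF2 and MIR33A (-0.38, adjusted p = 0.0268) and the row of FDPS and RUSC1-AS1 (-0.34, adjusted p = 0.0267) also passed in limma, while TRIM21 did not (adjusted p = 0.0502).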

Other observations

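Further lists of lipid genes were counted beside the 14.2% of all genes lower and 9.55% higher, and with 5 to 11 measured genes each a single call moves their shares widely. Among 11 partners of fatty acid activation and elongation, SLC25A1 and the dehydratase HACD3 (-0.51) fell (18.2%) and 0 rose in limma (0 also at an unadjusted p under 0.05), and 4 fell without paraquat 14. Of 11 genes of the isoprenoid branches, FNTA, a subunit of protein farnesyltransferase, rose (0.74) and ICMT, which methylates prenylated proteins, fell (-0.64), 9.09% each way. Without paraquat 12, 2 genes of this list rose. Of 5 measured genes listed around SREBP activation and sterol-regulated degradation, only the ubiquitin ligase TRIM21 was called (0.48 higher). Its place in this list is doubtful, so the call is not read as a change in SREBP control. That call ended without paraquat 8, 14, 18 or 20 or without control 7 or 19, and 2 genes of this list rose without control 11. Without paraquat 14 the list held 1 lower gene and 0 higher. Of 6 subunits of AMPK, the kinase that inhibits the acetyl-CoA carboxylases, PRKAB1 rose (0.77) and the others did not pass.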
